A study of Mus musculus with 18 samples.

Results

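The messenger RNA of 8 transcription factors that hepatocytes use to set and keep their identity was followed in mouse livers after myocardial infarction (MI). They were the CCAAT/enhancer-binding proteins Cebpa, Cebpb and Cebpd, the forkhead factors Foxa1, Foxa2 and Foxa3, the cut-homeodomain factor Onecut1 and the homeodomain factor Prox1. They were matched by exact gene symbol, and all 8 were found among the 50600 genes of the 1 day table and among the 17127 genes of the 12 hour table. All 8 also passed the filter on low counts in both, where 14266 and 12548 genes were tested.

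The C/EBP proteins share a basic leucine zipper and bind similar DNA. C/EBPα is abundant in the resting liver, where it supports genes of gluconeogenesis, urea synthesis and plasma protein synthesis and restrains cell division, whereas C/EBPβ and C/EBPδ are induced by interleukin-6, interleukin-1 and endotoxin and drive acute-phase genes. FOXA proteins open chromatin at liver enhancers, ONECUT1 acts on hepatic and biliary development and on glucose and bile acid genes, and PROX1 is a co-repressor of bile acid and lipid genes that also marks lymphatic endothelium.

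Livers of 18 mice were sequenced, 3 in each of 6 groups. At 1 day, LC and HMRKO mice had each undergone MI or a sham operation. LC (littermate control) mice carried mineralocorticoid receptor (MR) alleles flanked by loxP sites, and HMRKO mice carried the same alleles with Cre recombinase driven by the albumin promoter, so that deletion is directed to cells of the hepatocyte lineage and other liver cells keep the receptor. At 12 hours the groups were C57 + sham and C57 + MI. All mice were on the C57BL/6 background and are labelled as 12 postnatal weeks old. MI was made by tying off the left anterior descending artery for good. Titles of the MI samples at 1 day lack the operation, which was read from the design text, and the sources used here give no time of day for the sampling.

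Total counts per liver were 19098704 to 28945526 at 1 day. At 12 hours they were 1361564 to 2255837 in the sham livers and 16745688 to 19190438 in the MI livers, so that library depth and operation cannot be told apart in that experiment. Nr3c2, which encodes MR, was at 4.71 to 6.70 CPM (counts scaled to a common library size) in LC + sham and 2.55 to 3.76 in HMRKO + sham, and at 1.90 to 3.56 in LC + MI and 0.895 to 1.10 in HMRKO + MI. The genotypes did not overlap after either operation, and reads of the gene remained in every HMRKO liver. The genotype difference passed after MI (log2 fold change -1.36, SE 0.29, adjusted p = 0.00505, edgeR) and not after sham (-0.88, SE 0.25, adjusted p = 0.471). The 12 hepatocyte markers in the tables had counts in every group. Their summed level was 81690 to 108400 CPM in the sham livers at 1 day, 99430 to 106000 CPM in LC + MI and 118700 to 124100 CPM in HMRKO + MI. At 12 hours it was 51530 to 60200 CPM after sham and 127800 to 168300 CPM after MI. Of the 12 markers, 8 rose, 1 fell and 3 did not pass at 12 hours, where 66.2% of all genes passed. Among them, Alb went from a mean of 13630 to 53460 CPM. Fgb, which is also in the acute-phase list below, went from 1129 to 23200 CPM. In whole liver, fewer cells of a type and less RNA per cell cannot be told apart.

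The letters before the start sites of Cebpa, Cebpb, Foxa2 and Onecut1 are shown because these 4 genes moved in opposite directions at 12 hours and because their RefSeq start site is also the annotated gene start. The windows reach 250 bases upstream, 5′ to 3′ on the gene's strand, in build GRCm38.p6, and lie at chr7:35119043-35119292 (plus), chr2:167688665-167688914 (plus), chr2:148046970-148047219 (minus) and chr9:74861671-74861920 (plus). Capitals mark matches to the searched motifs.
Cebpa: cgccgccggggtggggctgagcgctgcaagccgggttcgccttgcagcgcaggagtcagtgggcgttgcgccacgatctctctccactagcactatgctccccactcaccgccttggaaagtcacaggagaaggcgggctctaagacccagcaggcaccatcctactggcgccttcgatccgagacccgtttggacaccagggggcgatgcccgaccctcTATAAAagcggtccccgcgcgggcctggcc
Cebpb: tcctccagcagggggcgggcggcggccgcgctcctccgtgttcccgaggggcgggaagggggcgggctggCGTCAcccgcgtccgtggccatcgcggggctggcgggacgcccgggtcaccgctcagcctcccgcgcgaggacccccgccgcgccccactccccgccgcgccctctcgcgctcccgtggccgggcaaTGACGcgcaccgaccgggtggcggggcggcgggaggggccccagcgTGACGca
Foxa2: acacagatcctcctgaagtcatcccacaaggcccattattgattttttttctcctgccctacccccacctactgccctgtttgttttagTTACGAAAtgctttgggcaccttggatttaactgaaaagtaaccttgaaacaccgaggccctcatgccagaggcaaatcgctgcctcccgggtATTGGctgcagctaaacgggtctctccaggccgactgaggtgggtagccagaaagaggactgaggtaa
Onecut1: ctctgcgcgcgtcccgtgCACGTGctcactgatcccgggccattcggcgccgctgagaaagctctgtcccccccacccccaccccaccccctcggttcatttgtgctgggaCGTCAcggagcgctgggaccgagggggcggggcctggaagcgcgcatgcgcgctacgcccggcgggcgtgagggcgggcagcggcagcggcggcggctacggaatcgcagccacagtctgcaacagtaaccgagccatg

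RefSeq promoter windows, which run from 250 bases before to 50 bases after a start site, were found for 7 of the 8 genes, 10 windows in all. Both strands were searched for TTCNNNGAA (STAT), TGACGTCA (cyclic AMP response element), TTNNGNAA (C/EBP), CACGTG (E-box) and CCAAT. After the windows had been seen, TGACG, the first part of the cyclic AMP response element, and the TATA box letters TATAAA were added, so a TGACGTCA would also hold the shorter match. With the start site counted as 0, Cebpb held TGACG at -180 (minus strand), -53 and -7 and TATAAA at 21. Of all 32851 windows, 20.8% held TGACG and 13.6% TATAAA. Cebpa held TATAAA at -30 and no other searched motif. Foxa2 held TTACGAAA, which reads as a C/EBP match on both strands, at -161, CCAAT at -68 (minus strand) and TGACG at 1. A C/EBP match was present in 40.7% of all windows and CCAAT in 37.4%. Onecut1 held CACGTG at -232, as did 7.15% of all windows, and TGACG at -139 (minus strand). No window of the 7 genes held TTCNNNGAA or TGACGTCA, which were present in 8.3% and 1.79% of all windows. These are matches of letters, and no binding was measured here.

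Annotation by GENCODE M21 on GRCm38 places Cebpa at chr7:35119293-35121928 (plus strand), Cebpb at chr2:167688915-167690418 (plus, a single exon), Cebpd at chr16:15887286-15891031 (plus), Foxa1 at chr12:57540628-57546916 (minus), Foxa2 at chr2:148042877-148046969 (minus), Foxa3 at chr7:19013284-19023538 (minus), Onecut1 at chr9:74861921-74891781 (plus) and Prox1 at chr1:190118035-190170714 (minus). The submitters' notes name the older build mm9. Several exons overlap another gene. On the same strand the lincRNA gene Gm20649, at 0 to 0.559 CPM at 1 day, shares 2171 of the 4113 exonic bases of Onecut1. On the opposite strand, Tmem189 shares 312 of the 1504 exonic bases of Cebpb, Spidr 562 of the 3746 of Cebpd and Prox1os 133 of the 8390 of Prox1. No source used here says whether counting used the strand, and the reads of such pairs cannot be told apart.

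At 12 hours after MI, Cebpb, Cebpd, Foxa2 and Prox1 rose and Cebpa and Onecut1 fell, which made 6 of 8 genes past the threshold (edgeR adjusted p under 0.05), where 66.2% of all genes tested passed. At 1 day, none of the 8 passed in LC mice, where 5.00% of all genes did. In HMRKO mice at 1 day Cebpa fell and Cebpd and Prox1 rose after MI, 3 of 8 genes against 43.7% of all genes. HMRKO + MI livers differed from LC + MI livers in Cebpa, which was lower, and Cebpd, which was higher, 2 of 8 genes against 30.8% of all genes. The MI effect itself differed between the genotypes for Cebpd and Foxa3, 2 of 8 genes against 15.2% of all genes. With a change of over 2-fold in the counts also required, Cebpa was lost at 12 hours and in HMRKO + MI versus LC + MI (log2 fold changes -0.74 and -0.81), and Prox1 in HMRKO mice (0.92). The size of the 12 hour changes depended on the scale. Mean TPM was 161 after sham and 62.8 after MI for Cebpa, and 13.3 and 20.2 for Prox1. The shares of the 8 genes that passed were close to those of all genes, and the results below are those of single genes. The comparisons at 1 day use the same 12 livers, so that they share groups and are not independent of each other.

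**Figure D1:**
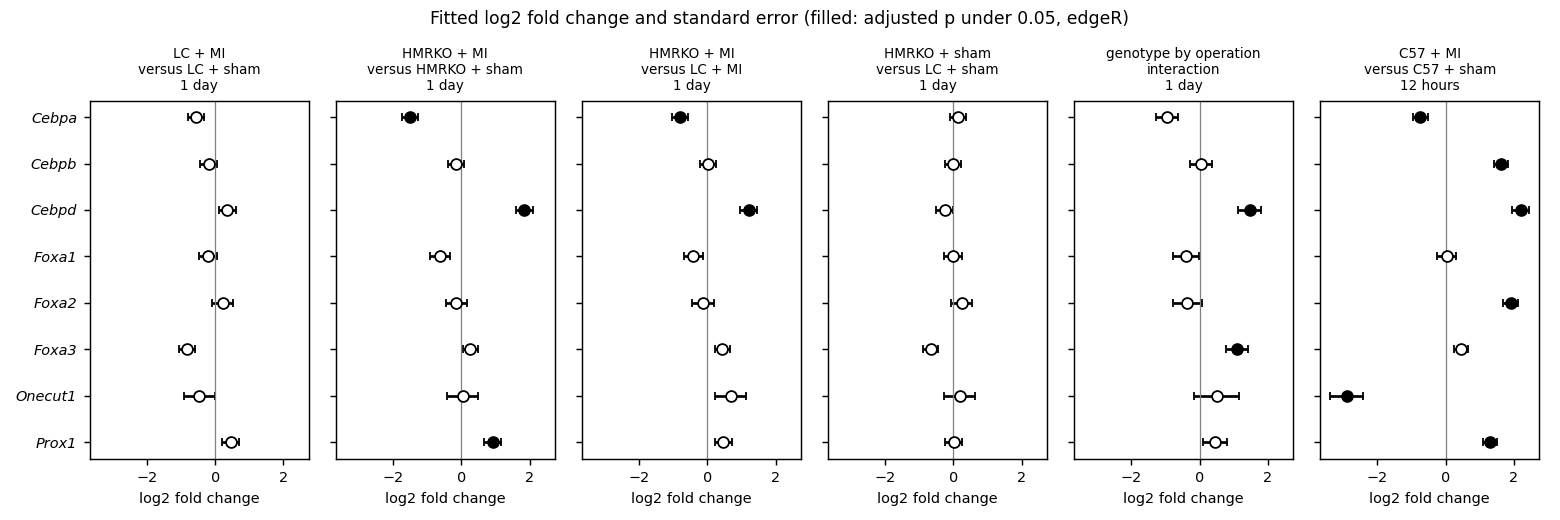
Fitted log2 fold changes of the 8 genes with their standard errors, 1 panel for each of the 6 comparisons. Filled points passed at an adjusted p under 0.05 (edgeR), and every panel has the same horizontal axis. Cebpd is filled to the right in 4 panels and Cebpa to the left in 3.

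Cebpa fell with MI in the HMRKO livers and at 12 hours. At 1 day its CPM values were 219, 226 and 223 in LC + sham and 181, 138 and 135 in LC + MI. The HMRKO + sham livers held 285, 192 and 255 CPM and the HMRKO + MI livers 54.4, 97.8 and 106 CPM. The 3 HMRKO + MI livers were below every other liver, and the LC + MI livers were below all sham livers of both genotypes. The fitted change was -1.50 on the log2 scale (SE 0.23, adjusted p = 0.000385, edgeR) in HMRKO mice, which is 2.84-fold lower. In LC mice it was -0.56 (SE 0.23, adjusted p = 0.179), which did not pass although the groups did not overlap.

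HMRKO + MI livers held less Cebpa than LC + MI livers, with a log2 fold change of -0.81 (SE 0.23, adjusted p = 0.0194). This call was lost without LC + MI replicate 1 (adjusted p = 0.0774), the liver with the highest mitochondrial share of counts (18.9%, against 7.53 to 15.6% in the others), and without HMRKO + MI replicate 1 (adjusted p = 0.0541), the liver with the lowest Cebpa. The part of the mitochondrial share in the result was not tested. The difference between the genotypes in the MI effect was -0.95 (SE 0.32, adjusted p = 0.0640, edgeR), which did not pass. It passed in DESeq2 (adjusted p = 0.0316) and in edgeR with no filter beyond 1 count (adjusted p = 0.0354).

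At 12 hours Cebpa was at 157, 142 and 184 TPM (length-scaled abundance) in the sham livers and at 75.0, 53.4 and 60.0 TPM after MI. In the counts the fold change was -0.74 on the log2 scale (SE 0.22, adjusted p = 0.0124), and the groups did not overlap on either scale. The call was lost without C57 + sham replicate 3, the sham liver with the highest level (-0.58, adjusted p = 0.0636). Among sham livers Cebpa was the most abundant of the 8 genes per length, and it was below Cebpb after MI.

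Cebpb rose early, and none of its differences passed at 1 day. It was at 75.3, 74.3 and 79.8 TPM in the sham livers at 12 hours and at 183, 139 and 135 TPM after MI, every MI liver above every sham liver. The log2 fold change in the counts was 1.62 (SE 0.21, adjusted p = 8.42e-05), a 3.07-fold rise. Tmem189, on the opposite strand, was at 2.37 to 9.73 CPM in those sham livers and at 26.5 to 63.6 CPM after MI, while Cebpb was at 64.1 to 69.5 and 177 to 248 CPM. The part of shared reads in the rise was not tested.

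At 1 day Cebpb was at 97.2, 204 and 102 CPM in LC + sham and at 114, 121 and 119 CPM in LC + MI. It was at 123, 152 and 124 CPM in HMRKO + sham and at 132, 117 and 110 CPM in HMRKO + MI. LC + sham replicate 2 was the highest of the 12 livers, and the other 11 lay between 97.2 and 152 CPM. The fitted changes were -0.19 (SE 0.24, adjusted p = 0.701) in LC and -0.15 (SE 0.24, adjusted p = 0.633) in HMRKO mice. Without LC + sham replicate 2 the LC value became 0.25.

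Cebpd, the least abundant of the 3 C/EBP genes, had the largest rise of the 8 genes in HMRKO mice and at 12 hours. At 1 day it was at 7.39, 13.8 and 8.89 CPM in LC + sham and at 9.97, 16.1 and 12.6 CPM in LC + MI. The HMRKO + sham livers held 9.38, 8.67 and 7.07 CPM and the HMRKO + MI livers 36.6, 24.7 and 28.6 CPM. Every HMRKO + MI liver was above every other liver, whereas LC + MI and LC + sham overlapped. The log2 fold change was 1.84 (SE 0.25, adjusted p = 0.000163) in HMRKO mice, a 3.57-fold rise, and 0.36 (SE 0.24, adjusted p = 0.422) in LC mice.

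The difference between the genotypes in the MI effect on Cebpd was itself past the threshold, at 1.47 on the log2 scale (SE 0.34, adjusted p = 0.0176). Directly compared, HMRKO + MI livers held 2.32 times the Cebpd of LC + MI livers (log2 fold change 1.21, SE 0.24, adjusted p = 0.00375). Both calls passed with each single liver left out, with log2 values of 1.17 to 1.67 and 1.05 to 1.40. At 12 hours Cebpd was at 10.9, 6.12 and 7.91 TPM in sham and at 21.2, 26.4 and 25.7 TPM in MI livers. The groups did not overlap, and the log2 fold change in the counts was 2.2 (SE 0.25, adjusted p = 3.33e-05).

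**Figure D2:**
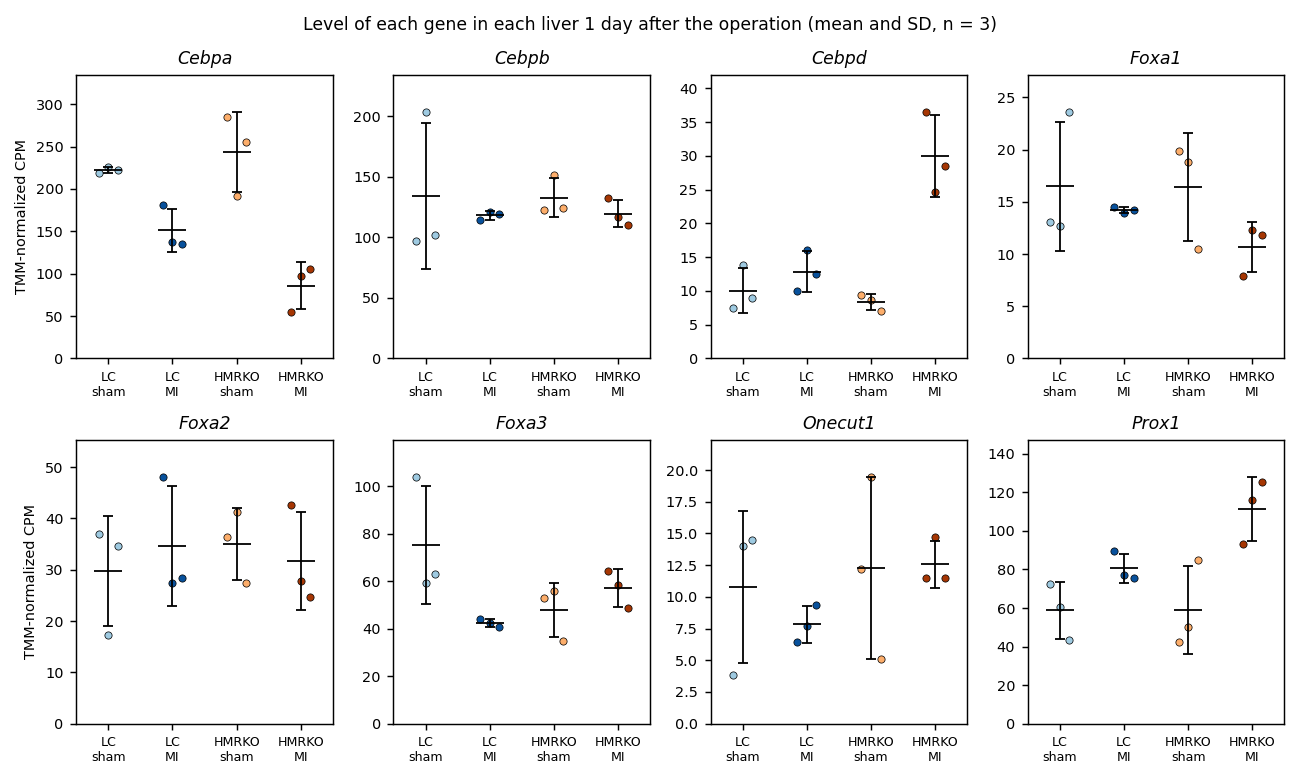
TMM-normalized CPM of each gene in the 12 livers at 1 day, 1 panel per gene with its own axis from 0. Points are livers, and the bars give the mean and the SD of 3 livers. The HMRKO + MI livers stand alone at the bottom for Cebpa (54.4 to 106 CPM) and at the top for Cebpd (24.7 to 36.6 CPM).

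Within a liver, the ratio of Cebpb to Cebpa does not depend on how the library was scaled. At 12 hours it was 0.480, 0.524 and 0.433 in the sham livers and 2.44, 2.61 and 2.25 in the MI livers, as TPM over TPM. At 1 day, as counts over counts, it was 0.445, 0.904 and 0.458 in LC + sham and 0.632, 0.877 and 0.882 in LC + MI, which overlapped. It was 0.431, 0.790 and 0.487 in HMRKO + sham and 2.43, 1.19 and 1.05 in HMRKO + MI, the only 1 day group in which all livers had more Cebpb than Cebpa reads. With Cebpb itself not past the threshold in either genotype at 1 day, the numerators in HMRKO + MI (110 to 132 CPM) lay within the range of the other livers.

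The ratio of Cebpd to Cebpa was 0.0338 to 0.0613 in LC + sham, 0.0552 to 0.117 in LC + MI, 0.0277 to 0.0452 in HMRKO + sham and 0.252 to 0.673 in HMRKO + MI. The HMRKO + MI livers were above all others at that time. At 12 hours it was 0.0429 to 0.0696 after sham and 0.282 to 0.494 after MI, also without overlap. The counts and the TPM ratios are on different scales, so the levels of the ratios are not compared between the times.

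**Figure D3:**
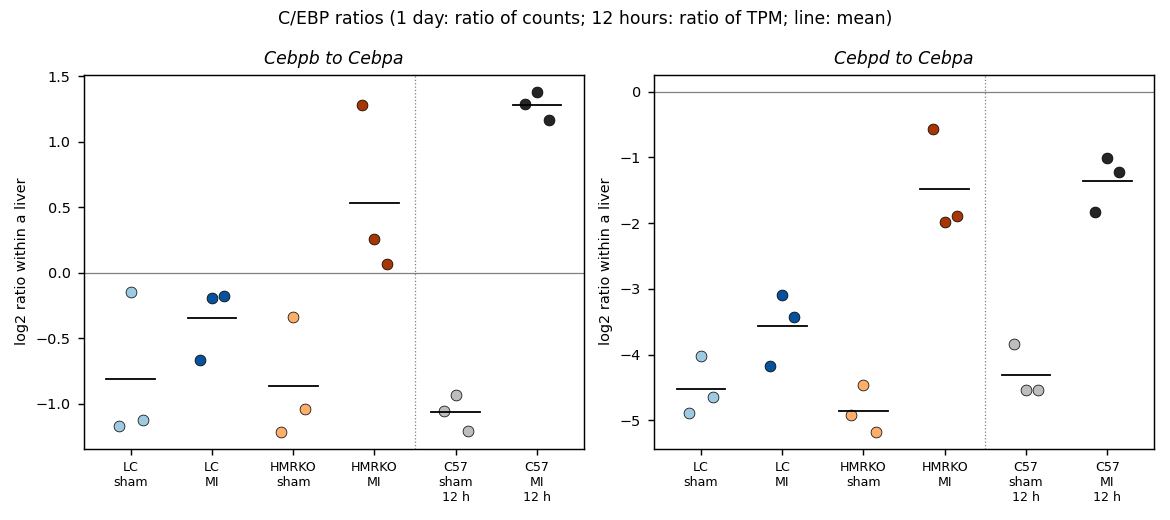
Log2 ratio of Cebpb to Cebpa (left) and of Cebpd to Cebpa (right) within each liver, from counts at 1 day and from TPM at 12 hours, to the right of the dotted line. Points are livers and black lines the means of 3. In the left panel the HMRKO + MI and the C57 + MI livers are above 0, and all other livers are below.

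The other genes of the C/EBP network were Cebpe, Cebpg, Ddit3, Atf4, the Tribbles genes Trib1, Trib2 and Trib3, whose proteins can direct C/EBP proteins to degradation, and the ubiquitin ligase gene Cop1, listed here also under its older symbol. Of the 8 tested, none passed in LC mice, where 5.00% of all genes did. In HMRKO mice 3 rose and 1 fell, where 43.7% of all genes passed. Their median log2 fold change was 0.07 against 0.01 over all genes. Trib3 rose by 1.17 (SE 0.26, adjusted p = 0.00303), Atf4 by 0.93 (SE 0.18, adjusted p = 0.00135) and Trib2 by 0.78 (SE 0.26, adjusted p = 0.0250). Cebpe, best known from granulocyte development, went from 10.7 to 18.6 CPM in HMRKO + sham to 0.727 to 1.93 CPM in HMRKO + MI. That change was -3.23 on the log2 scale (SE 0.54, adjusted p = 0.000613).

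Cebpe also differed between the genotypes in its MI effect (-3.55, SE 0.71, adjusted p = 0.0110), as did Trib3 (1.48, SE 0.36, adjusted p = 0.0210). At 12 hours 3 of the 8 rose and 1 fell, where 66.2% of all genes passed. Cebpe was at 25.3 to 32.7 CPM after sham and 1.50 to 1.76 CPM after MI, and Atf4, the effector of the integrated stress response, rose by 2.14 on the log2 scale (SE 0.22, adjusted p = 1.65e-05). Of the 11 neutrophil markers, 7 were tested at 1 day and 6 of them rose in HMRKO mice after MI, where 43.7% of all genes passed. The summed level of the 11 was 31.5 to 35.01 CPM in HMRKO + MI against 9.55 to 14.4 CPM in HMRKO + sham. In LC mice none of the 7 passed, with 4.93 to 13.6 CPM in sham and 11.0 to 21.1 CPM in MI livers. At 1 day both these sums and Cebpd were highest in the HMRKO + MI livers. The sham groups were in opposite orders. Mean Cebpd was 10.04 CPM in LC + sham and 8.37 CPM in HMRKO + sham, and the median sums were 7.33 and 10.18 CPM. The part of neutrophils in the 1 day Cebpd levels was not tested. At 12 hours 5 of the 9 markers tested rose and 2 fell, where 66.2% of all genes passed. Those 2 were Cxcr2 (-3.49), from a mean of 95.2 to 8.47 CPM, and Csf3r (-2.19), from 55.9 to 12.15 CPM. In the sham livers they held most of the sum, which was 137 to 184 CPM there and 47.1 to 95.0 CPM in MI livers. The part of neutrophils in the 12 hour Cebpd levels was not tested either.

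Receptors, signal transducers and regulators of the pathways that induce Cebpb and Cebpd formed a list of 14 genes. Not all are inducers, since the list also holds the feedback inhibitor gene Socs3. In LC mice 2 fell, where 5.00% of all genes passed. They were the glucocorticoid receptor gene Nr3c1 (-0.61, SE 0.14, adjusted p = 0.0277) and the interleukin-6 receptor gene Il6ra (-0.52, SE 0.13, adjusted p = 0.0365). In HMRKO mice 4 rose and 3 fell, near the 43.7% of all genes. The interleukin-1 receptor gene Il1r1 was at 24.4 to 108 CPM in HMRKO + sham and 383 to 683 CPM in HMRKO + MI, a log2 fold change of 3.24 (SE 0.51, adjusted p = 0.000397). Stat3, the transducer of interleukin-6, rose by 0.94 (SE 0.17, adjusted p = 0.00113) and Il6ra by 0.78 (SE 0.13, adjusted p = 0.000592).

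The MI effects on Il6ra (1.30, SE 0.18, adjusted p = 0.00405), Il1r1 (2.73, SE 0.67, adjusted p = 0.0211) and Stat3 (0.88, SE 0.25, adjusted p = 0.0327) differed between the genotypes. Il6ra was also lower in HMRKO + sham than in LC + sham, at 18.3 to 21.7 against 37.0 to 42.9 CPM (-0.96, SE 0.13, adjusted p = 0.0415). That call was lost with the replicate block and in at least 7 of the 12 fits that left out a single liver, in which no gene was called lower. At 12 hours 7 of the 14 rose and 4 fell, where 66.2% of all genes passed. Il1r1 rose by 4.34 (SE 0.33, adjusted p = 5e-06) and Socs3, a feedback inhibitor of STAT3, by 2.63 (SE 0.31, adjusted p = 4.04e-05), while Il6ra fell by 1.92 (SE 0.26, adjusted p = 0.000104).

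Foxa1, Foxa2 and Foxa3 did not move together. Foxa1 was at 13.0, 12.7 and 23.7 CPM in LC + sham, at 14.5, 13.9 and 14.2 CPM in LC + MI, at 19.9, 18.8 and 10.5 CPM in HMRKO + sham and at 7.89, 12.3 and 11.8 CPM in HMRKO + MI. The HMRKO groups overlapped through the lowest sham liver. The log2 fold change was -0.62 (SE 0.28, adjusted p = 0.0892) in HMRKO and -0.21 (SE 0.27, adjusted p = 0.704) in LC mice. The HMRKO value passed without HMRKO + sham replicate 3 (-0.86, adjusted p = 0.0237) and without LC + sham replicate 3 (adjusted p = 0.0496). It also passed with no filter beyond 1 count (-0.64, adjusted p = 0.0365, edgeR).

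At 12 hours Foxa1 was at 9.06, 5.48 and 5.25 TPM in sham and 4.53, 3.50 and 4.99 TPM in MI livers. The fold change in the counts was 0.03 on the log2 scale (SE 0.28, adjusted p = 0.938), and its sign turned with the scaling, to -0.05 with RLE size factors and -0.48 with TPM. The median of all genes moved with them, from 0.11 in the counts to 0.03 with RLE and -0.39 with TPM.

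Foxa2 rose at 12 hours and did not pass at 1 day. It was at 7.64, 9.03 and 7.84 TPM in the 12 hour sham livers and at 17.3, 17.6 and 23.8 TPM in the MI livers. All MI livers were above all sham livers, with a log2 fold change of 1.90 in the counts (SE 0.23, adjusted p = 4.62e-05), or 3.73-fold. At 1 day it was at 37.0, 17.4 and 34.7 CPM in LC + sham and 48.1, 27.3 and 28.4 CPM in LC + MI, and at 36.4, 41.2 and 27.4 CPM in HMRKO + sham and 42.6, 27.8 and 24.7 CPM in HMRKO + MI. All 4 groups overlapped, with log2 fold changes of 0.22 (SE 0.30, adjusted p = 0.731) in LC and -0.15 (SE 0.31, adjusted p = 0.723) in HMRKO mice. The 12 hour sham livers held 9.38 to 10.7 CPM of Foxa2, from 16, 27 and 27 counts, and the 12 hour MI livers 32.6 to 43.7 CPM. The 1 day sham livers, from a separate experiment, held 17.4 to 41.2 CPM. Library depth and operation cannot be told apart in the 12 hour values.

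Foxa3, which supports glucose transporter and gluconeogenic genes in fasting, differed between the genotypes in its MI effect. It was at 104, 59.2 and 63.1 CPM in LC + sham and at 44.1, 42.3 and 40.7 CPM in LC + MI. It was at 52.8, 56.1 and 34.7 CPM in HMRKO + sham and at 64.5, 58.5 and 48.6 CPM in HMRKO + MI. The LC groups did not overlap and the HMRKO groups did. The log2 fold changes were -0.83 (SE 0.23, adjusted p = 0.0510) in LC and 0.26 (SE 0.22, adjusted p = 0.372) in HMRKO mice, and their difference was 1.09 (SE 0.32, adjusted p = 0.0373).

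Both Foxa3 values lay near the threshold. The fall in LC mice passed with RLE size factors (adjusted p = 0.0490), in DESeq2 (0.0100) and without HMRKO + sham replicate 3 (0.0421). The difference between genotypes was lost in 7 of the 12 fits that left out a single liver, namely LC + sham replicate 1, any LC + MI liver, HMRKO + sham replicate 3 and HMRKO + MI replicates 1 and 2, with adjusted p of 0.0555 to 0.0782. At 12 hours Foxa3 was at 29.6, 43.1 and 28.0 TPM in sham and 28.96, 31.0 and 28.3 TPM in MI livers, which overlapped. In the counts the log2 fold change was 0.44 (SE 0.21, adjusted p = 0.0816, edgeR), and on TPM it was -0.16. The value in the counts passed with no filter beyond 1 count (0.59, adjusted p = 0.0351). It passed too without C57 + sham replicate 2 (0.69, adjusted p = 0.0226).

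Among 16 other forkhead genes, 15 were tested at 1 day. Of all genes, 5.00% passed in LC and 43.7% in HMRKO mice. In LC mice Foxo3, a FOXO factor restrained by insulin, fell (-0.74, SE 0.16, adjusted p = 0.0267). In HMRKO mice Foxo3 (-0.91, SE 0.17, adjusted p = 0.00100), Foxo4 (-0.95, SE 0.15, adjusted p = 0.000449) and Foxn3 (-1.46, SE 0.33, adjusted p = 0.00368) fell and Foxf1 rose (1.23, SE 0.38, adjusted p = 0.0178). At 12 hours all 16 were tested, and 4 rose and 7 fell, near the 66.2% of all genes. Their median was -0.49 against 0.11 over all genes. Foxp1 went from 204 to 308 CPM in sham to 20.8 to 40.6 CPM in MI livers (-3.27, SE 0.32, adjusted p = 1.37e-05). The sham range of Foxp1 at 1 day was 9.09 to 17.3 CPM.

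Onecut1 had the largest change of the 8 genes, a fall at 12 hours. It was at 67.3, 37.7 and 25.8 TPM in the sham livers and at 4.13, 1.36 and 5.84 TPM in the MI livers. The sham livers varied among themselves and were all above the MI livers, with a log2 fold change of -2.90 in the counts (SE 0.48, adjusted p = 0.000403), or 7.48-fold lower. Leaving out single livers gave -3.41 to -2.40, past the threshold each time. Cholangiocytes also express Onecut1, and the summed level of 8 cholangiocyte markers was 53.4 to 99.0 CPM in sham and 54.7 to 114 CPM in MI livers. Of the 6 of these that were tested, 3 fell and 2 rose, where 66.2% of all genes passed. The keratin gene Krt19 fell from 10.3 to 51.9 CPM to 3.88 to 5.12 CPM (-2.82, SE 0.46, adjusted p = 0.000326), and Epcam (-2.01) and Krt7 (-1.52) fell too, while Sox9 (1.43) and Spp1 (1.13) rose. Of 9 stellate cell and fibroblast markers 7 fell, from a sum of 289 to 510 CPM to 130 to 186 CPM. Their part in the fall was not tested.

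At 1 day Onecut1 was at 3.88, 14.0 and 14.5 CPM in LC + sham and 6.46, 7.68 and 9.34 CPM in LC + MI. It was at 12.2, 19.5 and 5.14 CPM in HMRKO + sham and 11.5, 14.7 and 11.5 CPM in HMRKO + MI. Sham livers of either genotype spanned the MI livers, and the fitted changes were -0.46 (SE 0.46, adjusted p = 0.616) in LC and 0.04 (SE 0.46, adjusted p = 0.952) in HMRKO mice. The LC + MI and HMRKO + MI livers did not overlap, at 0.68 on the log2 scale (SE 0.46, adjusted p = 0.279). Fitted on those groups alone, the same difference passed (SE 0.19, adjusted p = 0.0294, edgeR).

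The 12 hour sham livers held 27.1 to 73.1 CPM of Onecut1, which stands beside 3.88 to 19.5 CPM in the 1 day sham livers, from a separate table with other identifiers. Its relative Onecut2 showed the same order, with 712 to 1013 CPM in the 12 hour sham livers, 113 to 240 CPM in the 12 hour MI livers and 57.4 to 101 CPM in the 1 day sham livers. Onecut2 fell at 12 hours by 2.36 on the log2 scale (SE 0.31, adjusted p = 8.73e-05) and Onecut3 by 3.50 (SE 0.45, adjusted p = 6.68e-05). Across all genes at 12 hours, the median log2 fold change was 0.26 over the 3100 genes with 88 to 2792 exonic bases and -0.13 over the 3100 genes with 6851 bases or more. Cebpa, Cebpb, Foxa2 and Foxa3 were among the former and Prox1 (8390 bases) among the latter, and Onecut1 (4113 bases), Foxa1 and Cebpd lay between them, where the median was 0.20 over genes of 2793 to 4451 bases. The part of exonic length in these fold changes was not tested.

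**Figure D4:**
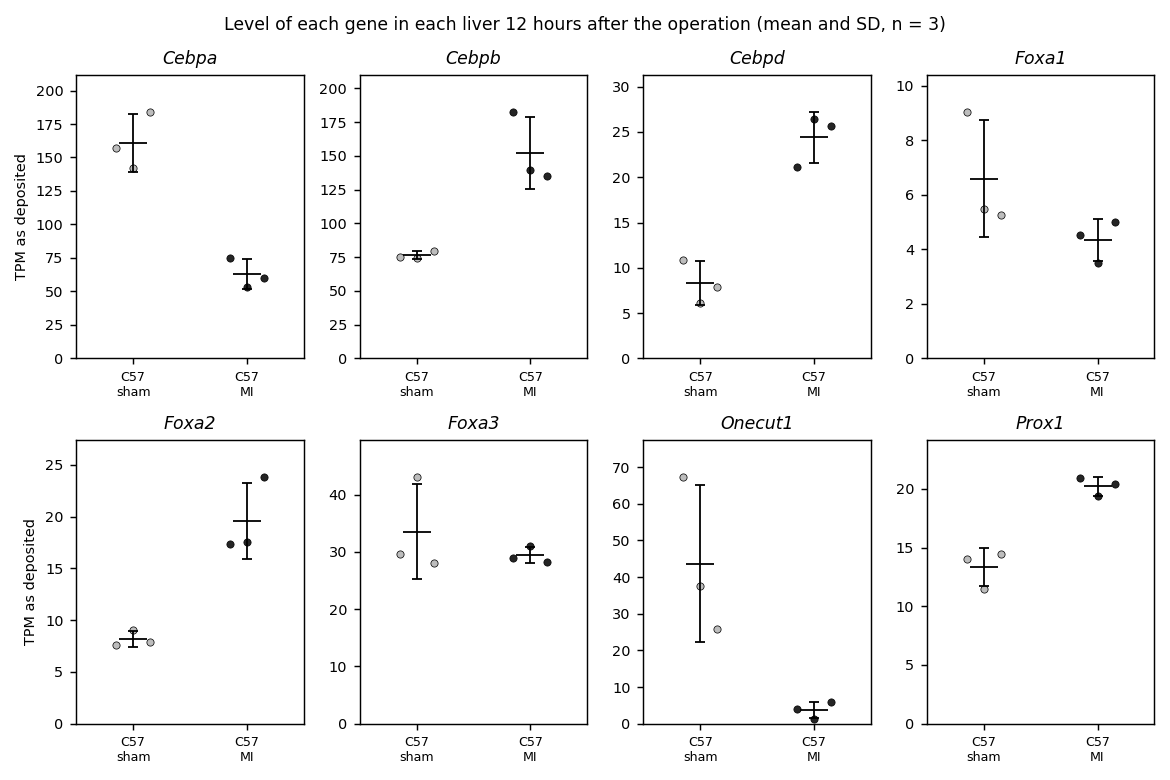
Deposited TPM of each gene in the 6 livers at 12 hours, 1 panel per gene with its own axis from 0. Points are livers, and the bars give the mean and the SD of 3 livers. Onecut1 falls from 25.8 to 67.3 TPM in sham to 1.36 to 5.84 TPM in MI livers, and Cebpb, Cebpd, Foxa2 and Prox1 are higher in every MI liver.

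Prox1 rose with MI at 12 hours and in HMRKO mice at 1 day. It was at 14.1, 11.5 and 14.5 TPM in the 12 hour sham livers and 20.9, 19.4 and 20.4 TPM in the MI livers. The groups did not overlap, and the log2 fold change in the counts was 1.30 (SE 0.20, adjusted p = 0.000211), or 2.45-fold. At 1 day it was at 72.4, 60.6 and 43.3 CPM in LC + sham and 89.4, 76.9 and 75.5 CPM in LC + MI. It was at 42.2, 49.96 and 84.9 CPM in HMRKO + sham and 93.2, 116 and 125 CPM in HMRKO + MI. The MI livers were above the sham livers in both genotypes.

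The rise of Prox1 was 0.92 on the log2 scale in HMRKO mice (SE 0.25, adjusted p = 0.0101), and the LC value of 0.46 (SE 0.25, adjusted p = 0.312) did not pass. The difference between these effects was 0.46 (SE 0.35, adjusted p = 0.379), which did not pass either. The antisense transcript Prox1os rose by 1.01 in HMRKO mice (SE 0.16, adjusted p = 0.000376), with 7.71 to 11.5 CPM in the HMRKO + sham and 17.1 to 20.2 CPM in the HMRKO + MI livers, and reads may be shared between the pair. Lymphatic and sinusoidal endothelial markers summed to 160 to 233 CPM in HMRKO + sham and 192 to 301 CPM in HMRKO + MI. Of these 11, 2 rose, where 43.7% of all genes passed. At 12 hours the same markers summed to 324 to 503 CPM in sham and 218 to 242 CPM in MI livers. Stab1 alone went from a mean of 218 to 58.7 CPM. Of the 10 tested, 1 rose, 4 fell and 5 did not pass, where 66.2% of all genes passed. The part of endothelial cells in the Prox1 levels was not tested.

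Without MI, the genotypes differed in none of the 8 genes in edgeR or DESeq2, where 0.0350% of all genes passed in edgeR. The largest of the 8 changes was that of Foxa3, with a log2 fold change of -0.66 (SE 0.22, adjusted p = 0.629, edgeR). In LC mice after MI none of the 8 passed in edgeR, and DESeq2 called 1, Foxa3. There DESeq2 called 647 of all 14266 genes higher and 660 lower.

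Per length, the order of the 8 genes in the 12 hour sham livers was Cebpa (161 TPM ± 21.6, SD, n = 3), Cebpb (76.5 ± 2.88), Onecut1 (43.6 ± 21.4), Foxa3 (33.6 ± 8.30), Prox1 (13.3 ± 1.60), Cebpd (8.31 ± 2.42), Foxa2 (8.17 ± 0.752) and Foxa1 (6.60 ± 2.14). The ranges of Onecut1 and Foxa3 overlapped, and so did those of Cebpd and Foxa2 and of Foxa2 and Foxa1. In the MI livers it was Cebpb (152 TPM ± 26.5, SD, n = 3), Cebpa (62.8 ± 11.1), Foxa3 (29.4 ± 1.40), Cebpd (24.4 ± 2.84), Prox1 (20.2 ± 0.795), Foxa2 (19.6 ± 3.69), Foxa1 (4.34 ± 0.763) and Onecut1 (3.78 ± 2.26). There the ranges of Prox1 and Foxa2 and of Foxa1 and Onecut1 overlapped. Onecut1 moved from the third place to the last.

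Of 25 acute-phase genes with C/EBP sites, 5 rose and none fell in LC mice at 1 day, where 5.00% of all genes passed. Their median log2 fold change was 0.49 against 0.01 over all genes. Serpina3n, which encodes a protease inhibitor, had the smallest p and rose by 1.68 (SE 0.21, adjusted p = 0.00151). In HMRKO mice 16 rose and 1, Il1rn, fell, with a median of 1.01, where 43.7% of all genes passed. The fibrinogen chain gene Fga was at 1388 to 1970 CPM in HMRKO + sham and 15580 to 23030 CPM in HMRKO + MI, a log2 fold change of 3.66 (SE 0.33, adjusted p = 1.52e-05). At 12 hours 22 of the 25 rose and none fell, where 66.2% of all genes passed, with a median of 2.35 against 0.11. Lcn2, the siderophore-binding lipocalin, rose by 4.19 (SE 0.38, adjusted p = 9.76e-06) and Apcs, serum amyloid P, by 3.60 (SE 0.33, adjusted p = 9.75e-06).

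The MI effect differed between the genotypes for 7 of these 25 genes, all with a larger rise in HMRKO mice, against 15.2% of all genes. They were Fga (2.79, SE 0.42, adjusted p = 0.00537), Fgb, Fgg, Serpina3m, Serpina3n, Saa1 and Saa2, the last at 1.19 (SE 0.31, adjusted p = 0.0257). HMRKO + MI livers held more of 8 of the 25 than LC + MI livers, where 30.8% of all genes differed in either direction. Among the 1 day livers these had the highest Cebpd and the lowest Cebpa. The part of Cebpd or Cebpa in these rises was not tested.

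The 14 metabolic genes with C/EBP sites went in different directions by experiment. In LC mice at 1 day 6 fell and none rose, with a median of -0.66, where 5.00% of all genes passed. The urea cycle genes Cps1, Ass1 and Otc were among those that fell. In HMRKO mice 5 rose and 4 fell, where 43.7% of all genes passed. Arg1, arginase, rose by 1.75 (SE 0.21, adjusted p = 7.25e-05) and Tat, tyrosine aminotransferase, by 1.59 (SE 0.28, adjusted p = 0.000818).

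The MI effect on 5 of these 14 genes, Tat, Arg1, Ass1, Cps1 and Tdo2, was higher in HMRKO mice, against 15.2% of all genes in either direction. The largest difference was at Tat (2.2, SE 0.39, adjusted p = 0.00811). At 12 hours 11 of the 14 rose and none fell, where 66.2% of all genes passed, with a median of 2.03 against 0.11. Tat was at 210 to 262 CPM in sham and 3043 to 4302 CPM in MI livers (3.89, SE 0.29, adjusted p = 4.46e-06). Cebpa, which is known to act on such genes, was lower in those MI livers, and its part in their levels was not tested.

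Genes tied to FOXA, ONECUT1 or PROX1 numbered 14. In LC mice at 1 day 1 of them rose and none fell, where 5.00% of all genes passed. In HMRKO mice 5 rose and 5 fell, where 43.7% of all genes passed. Igfbp1, an insulin-repressed FOXA target, rose from 3.27 to 4.87 CPM in HMRKO + sham to 127 to 272 CPM in HMRKO + MI (5.48, SE 0.87, adjusted p = 0.000431). The bile salt export pump gene Abcb11 fell by 2.39 (SE 0.40, adjusted p = 0.000571).

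At 12 hours 13 of the 14 were tested, and 6 rose and 4 fell, where 66.2% of all genes passed. Igfbp1 rose by 5.12 (SE 0.59, adjusted p = 3.48e-05). Cyp7a1, the rate-limiting enzyme of bile acid synthesis and a gene that PROX1 can repress, fell by 2.32 (SE 0.42, adjusted p = 0.000709). The MI effect at 1 day differed between the genotypes for genes that included Igfbp1 (5.20, SE 1.09, adjusted p = 0.0128), Cpt1a (1.26, SE 0.27, adjusted p = 0.0136) and Abcb11 (-2.08, SE 0.54, adjusted p = 0.0250).

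**Figure D5:**
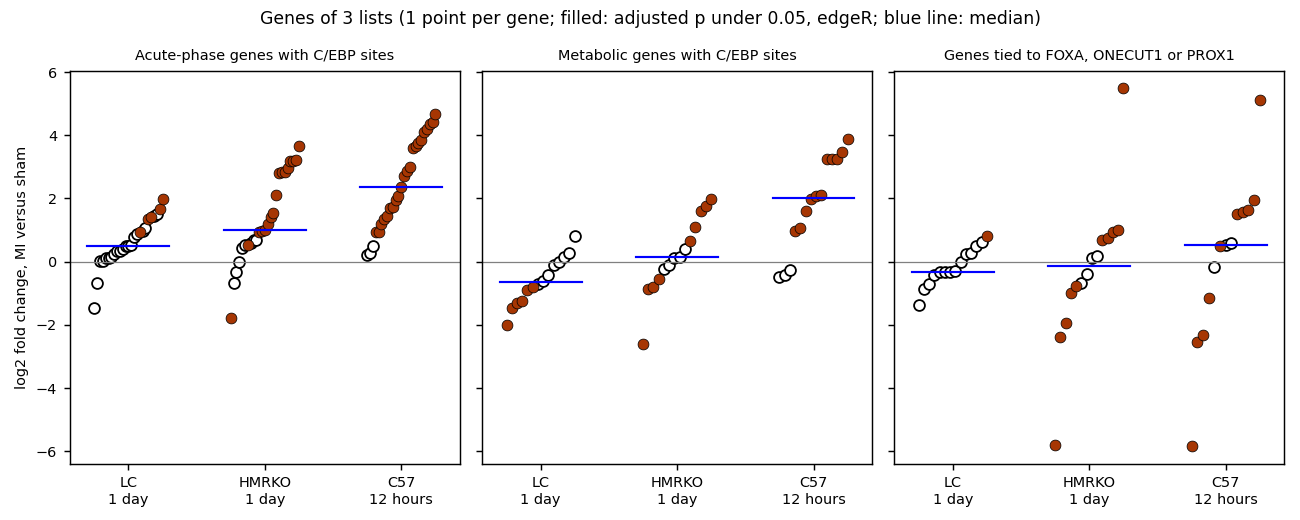
Log2 fold change of MI versus sham for each tested gene of 3 lists, in LC and HMRKO mice at 1 day and in C57 mice at 12 hours. Points are genes in rising order, filled where the adjusted p was under 0.05 (edgeR), and blue lines are medians. The acute-phase medians are 0.49, 1.01 and 2.35, and the metabolic median is -0.66 in LC mice and 2.03 at 12 hours.

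Of 37 other hepatocyte transcription factors, 35 were tested at 1 day. In LC mice 2 rose and 5 fell, where 5.00% of all genes passed, and in HMRKO mice 7 rose and 9 fell, near the 43.7% of all genes. Dbp, a clock-output factor of the PAR bZIP family, fell in LC (-4.37, SE 0.27, adjusted p = 4.60e-06) and in HMRKO mice (-5.09, SE 0.28, adjusted p = 9.56e-07), and the related Tef fell in both. Nr1i3, the xenobiotic receptor CAR, rose in LC (0.89, SE 0.20, adjusted p = 0.0251) and fell in HMRKO mice (-0.69, SE 0.20, adjusted p = 0.0123), a difference of -1.58 (SE 0.28, adjusted p = 0.00787). At 12 hours 12 of 37 rose and 14 fell, near the 66.2% of all genes. Xbp1, a factor of the unfolded protein response, rose by 3.25 (SE 0.27, adjusted p = 6.82e-06) and Dbp fell by 5.39 (SE 0.56, adjusted p = 1.85e-05). Nfib (-3.41, SE 0.28, adjusted p = 6.04e-06) and Nr2f2 (-2.54, SE 0.19, adjusted p = 5.05e-06) fell as well.

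The genes most like each member were sought over the 12 livers at 1 day among 12139 genes, by Pearson's r of log2 CPM, as a description. The livers share their groups, so that a group difference alone gives a high r. Cebpa was most like Slc46a1 (r = 0.99), Foxo4 (0.98) and Cyb5b (0.98). Cebpd was most like Pgm1, Cwc27 and Rars, each at 0.98. Cebpb, for which no group difference passed, reached 0.79 with Gmfb, 0.78 with Polr2l and 0.76 with 2010107E04Rik.

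Among the forkhead members, Foxa1 reached 0.86 with Mgme1, Zfp780b and Mpv17, Foxa2 0.89 with Ptger1 and 0.87 with BC002059 and Zfp951, and Foxa3 0.89 with Zfc3h1, 0.88 with Phf3 and 0.86 with Frrs1. Onecut1 reached 0.84 with Zfp383 and 0.82 with Cyp2c70 and D230025D16Rik. Prox1 reached 0.93 with Cyp4a32, 0.92 with Epha2 and 0.90 with 1500011B03Rik. Between members, Cebpa and Cebpd had r = -0.91, Prox1 and Foxa1 -0.77 and Prox1 and Cebpa -0.67 over the same 12 livers, whereas Cebpa and Cebpb had 0.07.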

How the data were processed

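Liver RNA of 18 mice was measured by TruSeq RNA-seq. For 1 day the authors deposited raw counts per gene (Ensembl identifiers), and for 12 hours they deposited per gene (Entrez identifiers) 3 values, namely estimated counts, FPKM and TPM. The FPKM and the authors' mean columns, as deposited, were not used. Every value column was mapped to a sample (0 were not). Bowtie2 2.2.3, HISAT2 2.1.0, TopHat2, the package DESeq2 and build mm9 are listed in the submitters' processing notes, without roles. No source used here gives the counter, annotation or strand setting. The labels state that livers were flash frozen, the study's methods RNAlater.

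Groups came from sample labels and the design text. Counts were tested with edgeR 4.0.16 in R 4.3.3 (filterByExpr with a minimum count of 10 and a minimum total of 15, TMM, quasi-likelihood, 1 coefficient per group), over 12 livers at 1 day and apart from them over 6 at 12 hours, after rounding the estimated counts. P values were Benjamini-Hochberg adjusted over all genes tested, and passed means under 0.05 at any fold change. CPM values are TMM-normalized. No label names separate litters, and p-values measure the spread between these livers. Biological variation between livers (edgeR) was 0.209 for 1 day and 0.240 for 12 hours. Depth limits precision most in the 12 hour sham livers.

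Alternatives were RLE size factors, DESeq2 1.42.0, other filters, an additional 2-fold threshold, the replicate number as a block, each liver left out, only the groups compared, libraries without mitochondrially encoded genes and limma 3.58.1 on TPM. The genes and lists were chosen with earlier results of these data known, and the lists (15) were written from general knowledge. Named genes are the 8 members, Nr3c2, up to 4 of each list with the smallest p among those that passed in a comparison, and for each member the 3 genes with the highest r at a mean CPM of at least 1 (log2 of CPM plus 0.5). Genes named beyond this rule (among them Cebpg, Ddit3, Cop1, Onecut2, Onecut3, Otc, Cps1, Cyp7a1, Saa1, Saa2, Il1rn and the overlapping genes) were chosen after their values were seen. A few list genes within the rule are not reported here but stay in the counts. The 7 antisense and neighbouring transcripts listed included 3 in the 1 day table, of which Prox1os was tested. Promoter letters are from RefSeq, gene models from GENCODE M21.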

Additional observations from a re-analysis of the deposited data

Results flagged for a closer look

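The MI effect at 1 day differed between HMRKO and LC mice for Cebpd, by 1.47 on the log2 scale, and for Foxa3, by 1.09, each by the test of the difference itself (adjusted p = 0.0176 and 0.0373, edgeR). Cebpd rose in HMRKO mice (24.7 to 36.6 CPM after MI against 7.07 to 9.38 CPM after sham) and the LC groups overlapped. The Foxa3 difference was lost without LC + sham replicate 1 (the highest liver, adjusted p = 0.0603) and in 6 other fits that left out a single liver.

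Foxa3 also lay lower in all LC + MI livers than in all LC + sham livers at 1 day (-0.83), while at 12 hours every C57 + MI liver was higher than every sham liver in CPM (50.3 to 58.2 against 33.0 to 50.2). This contrast between the times was not tested. On TPM the 12 hour value was -0.16 and the groups overlapped.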

How the results depend on the processing

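Log2 fold changes kept their direction in most alternatives. At 12 hours Foxa1 turned from 0.03 to -0.05 (RLE), -0.06 (DESeq2), -0.07 (mean count of at least 10), -0.20 (libraries thinned to the smallest total, added after seeing the data) and -0.48, -0.56 and -0.48 on TPM (pseudocount 1, 0.1 and 1 without filter), and Foxa3 turned to -0.16 on TPM in all 3. The TPM scale moved the median of all genes from 0.11 to -0.39 and the calls from 4299 higher and 4013 lower to 2191 and 4974. In HMRKO + sham versus LC + sham, values near 0 turned for Foxa1 (0.01 with RLE and DESeq2).

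The number of the 8 genes that passed in LC mice was 1 instead of 0, Foxa3, with RLE, DESeq2, no filter, the replicate block and libraries without mitochondrially encoded genes, and with a 2-fold threshold HMRKO + MI versus LC + MI had 1 instead of 2 (Cebpa lost), HMRKO mice 2 instead of 3 (Prox1 lost) and 12 hours 5 instead of 6 (Cebpa lost). Fitted on the groups compared alone, Onecut1 passed in HMRKO + MI versus LC + MI (0.68, adjusted p = 0.0294). With no filter beyond 1 count, Foxa1 passed in HMRKO mice (-0.64, adjusted p = 0.0365, edgeR) and Foxa3 at 12 hours (0.59, adjusted p = 0.0351, edgeR). The interaction of Cebpa (-0.95) passed with DESeq2 (adjusted p = 0.0316) and with no filter (adjusted p = 0.0354, edgeR). At 12 hours 6 of 8 passed after thinning and without the most abundant gene, Gm20594 (also added after seeing the data). Between livers of the same replicate number, correlations of deviations from the group mean were -0.21 to 0.25 at 1 day and -0.10 to 0.02 at 12 hours. Livers of different numbers were not compared in this way, so these values cannot decide whether the numbers pair the samples. With the replicate block, Foxa3 passed in LC mice (-0.80, adjusted p = 0.0359), near-0 values turned between the sham groups for Foxa1 (0.02), Cebpb (0.03) and Prox1 (-0.02) and in the interaction for Cebpb (-0.00), and no other call of the 8 genes changed.

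Leaving out single livers gave 0 to 1 genes passing in LC mice, 3 to 4 in HMRKO mice, 1 to 2 in HMRKO + MI versus LC + MI, 1 to 2 in the interaction and 5 to 7 at 12 hours. Signs turned in LC mice for Cebpb (-0.37 to 0.25), Foxa2 (-0.09 to 0.41) and Foxa1 (-0.37 to 0.14), in HMRKO mice for Foxa2 (-0.41 to 0.01) and Onecut1 (-0.33 to 0.53), in HMRKO + MI versus LC + MI for Cebpb (-0.05 to 0.08) and Foxa2 (-0.39 to 0.18), and between the sham groups for Cebpb (-0.20 to 0.42), Prox1 (-0.35 to 0.20), Foxa2 (-0.03 to 0.43), Onecut1 (-0.30 to 0.55), Cebpd (-0.44 to 0.04) and Foxa1 (-0.17 to 0.35). They also turned in the interaction for Cebpb (-0.40 to 0.22) and at 12 hours for Foxa1 (-0.13 to 0.34). None of these values passed. The cause was not tested.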
